A study of Mus musculus with 12 samples.

Results

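Distal elements within exons were the merged nascent-transcription peaks of mouse prophase I spermatocytes whose midpoint lay in an annotated exon and whose nearest edge was at least 1000 bp from every annotated transcription start site (TSS). Peaks from the 3 substage lists that overlapped or touched were joined into 1 element, and 2214 of the 63116 elements on chromosomes 1 to 19 met the rule (65172 elements in the whole genome). They made up 5.87% (95% Wilson interval 5.64 to 6.11) of the 37706 distal autosomal elements, against 15958 in introns and 19534 between genes; the other 25410 elements were proximal. Another 38 elements on chromosomes X and Y had the same position and were left out by the rule.

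The study enriched spermatocytes of adult wild-type mice on a sedimentation gradient (STAPUT) into 3 fractions, LZ for leptonema/zygonema, P for pachynema and D for diplonema, with no mutant or treatment in any group; each fraction came from testes of several animals, and the strain of these mice (C57Bl/6J or DBA/2J in the study as a whole) was not given for the fractions in the sources used here. Length-extended chromatin run-on sequencing (leChRO-seq), in which polymerases engaged on chromatin add biotin-labelled nucleotides to their nascent RNA, was made from 4 libraries a substage, and dREG, a machine-learning caller of transcription initiation from nascent RNA, was run by the authors on the merged libraries. The deposited lists held 71107 LZ, 68352 P and 38603 D peaks, each with a dREG score and a p-value but no read count, so depth behind a peak was unknown. With 1 pooled list a substage there was no spread between animals, and no test between substages was possible. The fractions were enriched, not pure, so peaks of other cells could not be told apart from those of spermatocytes: TSS elements were called at 10 of 10 prophase I marker genes in every substage, at 4 of 5 spermatid markers in every substage (Tnp2 lacked one), at 2, 4 and 3 of 5 Sertoli markers in LZ, P and D, and at 0, 1 and 0 of 5 Leydig markers.

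Active promoters and enhancers both start transcription in opposite directions, and the pair of divergent nascent transcripts is what dREG was trained to find; calls therefore mark candidate regulatory elements without saying which gene they act on. Some enhancers are known to lie within exons, where the same bases serve as coding sequence and as binding sites for transcription factors. An element in an exon can also mark a start site that the annotation lacks, and polymerase passing through a gene or slowing near its polyadenylation site adds to the nascent signal there.

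The following windows show the 3 of the 10 highest-ranked members called in all substages (described further on) whose central window (the midpoint and 100 bases on each side) was wholly coding sequence. They are examples of CpG-dense exon sequence and do not stand for all strong coding members: the window of A330070K13Rik, also a coding member of those 10, held 0 CpGs at 52.2% GC, and those of Fer1l6 and Slc16a5 held 7. They are printed from the GRCm38 (mm10) plus strand, 5′ to 3′, with CpG dinucleotides in capitals; the Lgr6 gene itself is on the minus strand. Lhx2, a LIM-homeodomain transcription factor, is shown at chr2:38368881-38369081, Lgr6, a receptor for R-spondins, at chr1:134987581-134987781, and Pomc, the precursor of corticotropin and beta-endorphin, at chr12:3960051-3960251.
Lhx2: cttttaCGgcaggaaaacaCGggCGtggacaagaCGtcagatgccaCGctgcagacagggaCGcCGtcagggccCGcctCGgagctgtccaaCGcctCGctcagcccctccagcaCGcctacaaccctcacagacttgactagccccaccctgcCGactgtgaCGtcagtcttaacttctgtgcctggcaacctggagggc
Lgr6: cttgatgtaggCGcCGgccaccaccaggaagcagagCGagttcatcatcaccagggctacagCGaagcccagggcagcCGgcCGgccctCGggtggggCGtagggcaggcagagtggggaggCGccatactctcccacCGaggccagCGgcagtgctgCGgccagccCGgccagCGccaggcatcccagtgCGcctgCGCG
Pomc: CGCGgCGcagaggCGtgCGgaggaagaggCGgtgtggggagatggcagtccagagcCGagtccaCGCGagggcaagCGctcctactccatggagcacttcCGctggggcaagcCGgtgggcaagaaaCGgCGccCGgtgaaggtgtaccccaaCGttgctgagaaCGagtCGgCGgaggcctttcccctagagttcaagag
The Lhx2 window held 14 CpGs and had a GC content of 62.7%, the Lgr6 window 17 CpGs and 71.6%, and the Pomc window 19 CpGs and 65.7%. The Lhx2 window also held the full cyclic AMP response element TGACGTCA and, on the opposite strand, the RFX core GTTGCCA.

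To show how an element can sit across a short exon, the window of Fer1l6, a member of the ferlin family of membrane proteins, is given at chr15:58600326-58600526 with exon bases in capitals and intron bases in lower case. This member was chosen after its values were seen, as the inner exon member with the highest lowest rank over the 3 lists whose window held coding sequence and intron alone.
Fer1l6: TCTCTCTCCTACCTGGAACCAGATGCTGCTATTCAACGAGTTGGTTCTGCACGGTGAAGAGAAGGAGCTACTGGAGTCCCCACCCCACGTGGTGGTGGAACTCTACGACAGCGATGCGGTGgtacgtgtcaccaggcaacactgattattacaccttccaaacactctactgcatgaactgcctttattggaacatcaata
The exon was 135 bp long and the window held 121 of its bases, followed by the GT of the splice donor, whereas the whole element spanned 1070 bp (chr15:58599891-58600960) and so reached far into both introns. Its dREG scores were 1.38 in LZ, 1.32 in P and 0.98 in D.

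The members, like all autosomal elements, were called more often in LZ and P than in D. An LZ peak was present at 1580 members (71.4%, 69.4 to 73.2), a P peak at 1429 (64.5%, 62.5 to 66.5) and a D peak at 554 (25%, 23.3 to 26.9). Among all autosomal elements the shares were 78.2%, 72.1% and 39%, so members lay below the background in each list, as did other distal elements (75.8%, 63.8% and 26.1% in introns and 76.2%, 67.2% and 28.0% between genes). The diplonema list was the shortest. When every list was cut to the length of the shortest, the diplonema share of members was 53.0%, against 60.9% in LZ and 58.2% in P. The shares of all autosomal elements were not recomputed with the cut lists, so these values have no background beside them.

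Most members were private to a single substage or shared by neighbouring substages. A peak in LZ alone was found at 685 members (30.9%), in LZ and P at 526 (23.8%), in P alone at 449 (20.3%), in all 3 substages at 354 (16.0%), in P and D at 100 (4.52%), in D alone at 85 (3.84%) and in LZ and D without P at 15 (0.678%). When the whole element had to lie inside 1 exon, the share called in all substages was 10.1%. That filter favours short elements, and members called in all substages were longer (median 975 bp, against 400 bp for LZ alone). The shares that follow for other elements were not filtered in this way. Of all autosomal elements 31.4% were called in every substage, and of proximal elements 49.4%. Against intronic elements, members were called in LZ less often, with a difference of -4.45 percentage points (Newcombe 95% interval -6.48 to -2.48), and in every substage less often, at -2.34 points (-3.93 to -0.65). Pachynema-only calls were more frequent in members than in introns by 3.42 points (1.69 to 5.24) and than between genes by 3.47 points (1.77 to 5.28). The pachynema share itself differed from introns by 0.69 points with an interval that included 0 (-1.45 to 2.80), and the diplonema share by -1.10 points (-2.99 to 0.87). Against intergenic elements the members were called less often in LZ (-4.88 points, -6.89 to -2.94), P (-2.69, -4.81 to -0.61), D (-3.02, -4.89 to -1.07) and every substage (-4.62, -6.20 to -2.94). These intervals cover the counting of elements alone, and neighbouring elements of a gene are not independent.

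**Figure D1:**
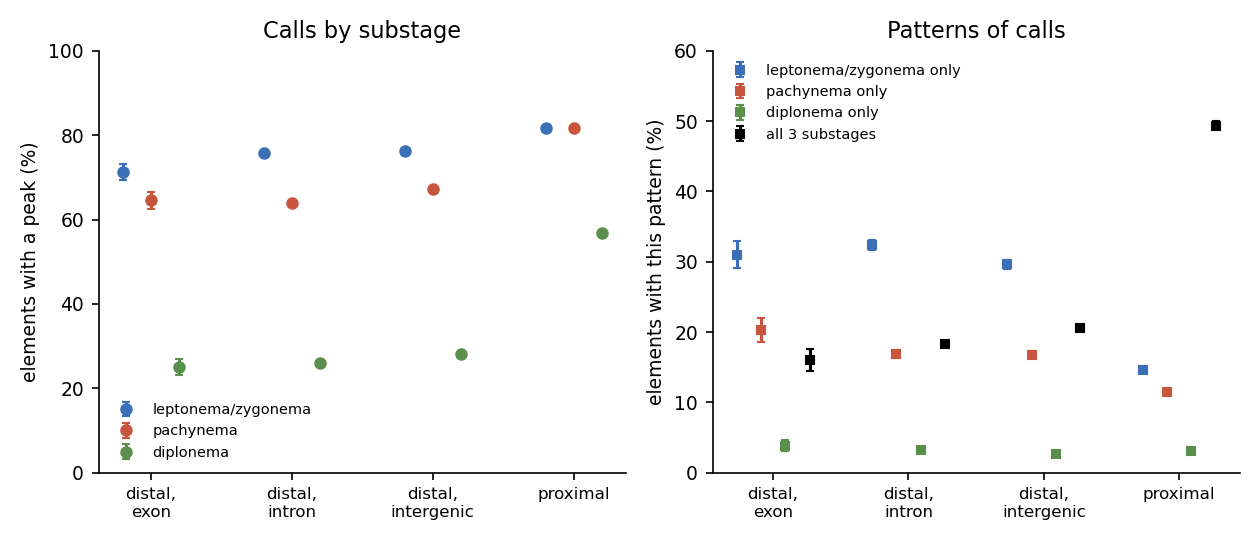
Left, percent of elements with a peak in each substage; right, percent called in 1 substage only or in all 3; x axes, the 2214 distal exonic elements beside distal intronic, distal intergenic and proximal elements. Points are shares with 95% Wilson intervals; exonic elements had the largest pachynema-only share (20.3%) of the 4 places plotted and the smallest share called in all substages (16.0%).

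By median rank, members as a whole were weaker calls than other elements, though the differences were not tested. Because it was not tested whether the lists share a score scale, a score was ranked within its list. Its rank is the percent of peaks with this score or a lower one. The median rank of members was 38.3% in LZ, 39.3% in P and 37.2% in D. Intronic elements had medians of 44.0%, 41.7% and 40.6%, intergenic elements 46.4%, 45.7% and 45.8%, and proximal elements 70.2%, 69.7% and 69.0%. Classes of members differed. Those in protein-coding genes had 37.4%, 39.3% and 35.4%, but those in lincRNAs had 44.6%, 51.2% and 50.9%. In D, the 10 members in TEC loci had a median of 60.1% and the 15 in antisense RNAs 60.8%. Within the members, rank and number of substages went together: those called in LZ alone had a median LZ rank of 21.6%, those in P alone a median P rank of 19.1% and those in D alone a median D rank of 12.9%, while those called in every substage had medians of 76.9%, 74.0% and 50.8%. An element is taken at its highest peak, and those called in every substage were also longer, with a median of 975 bp against 490 bp for all members (480 bp in introns, 710 bp for proximal elements).

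**Figure D2:**
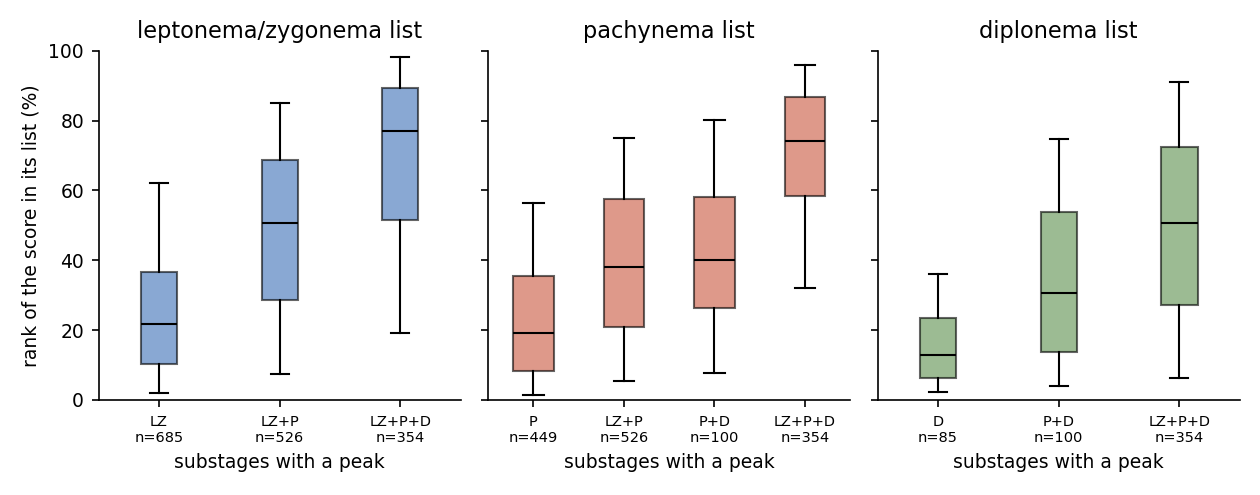
Rank of the dREG score within its list (percent of the list's peaks with this score or lower) for members grouped by the substages in which they were called, 1 panel a list; boxes show quartiles and medians, whiskers the 5th and 95th percentiles, and the 15 members called in LZ and D alone are not drawn. Ranks were highest in members called in all 3 substages, with medians of 76.9%, 74.0% and 50.8%.

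Exonic sequence held more elements for its length than the rest of the distal genome. The annotated exons at least 1000 bp from a TSS covered 80.8 Mb and held 27.4 elements per Mb (exact Poisson 95% interval 26.3 to 28.6), against 16.5 (16.3 to 16.8) in introns and 16.3 (16.1 to 16.5) between genes. Coding sequence held 43.3 per Mb (40.6 to 46.3) over 20.9 Mb. The 3′ untranslated regions (UTRs) had 18.7 per Mb (17.2 to 20.3) and exons of transcripts without a coding frame 24.1 (22.3 to 26.1). The few distal 5′ UTRs had 48.2 per Mb with a wide interval (32.5 to 68.9), from 30 members. Coding sequence lay above introns in each substage: it had 30.3, 29.5 and 11.2 elements per Mb called in LZ, P and D, and introns 12.5, 10.6 and 4.32. In sequence free of soft-masked repeats, an alternative chosen after seeing the data, the gap was of like size: coding sequence had 43.8 per Mb and introns 18.7. Members also lay nearer to a TSS, at a median of 4443 bp, against 9965.5 bp for intronic and 17464.5 bp for intergenic elements. Densities were not compared at matched distance from a TSS, so annotation class and nearness to a TSS could not be told apart.

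**Figure D3:**
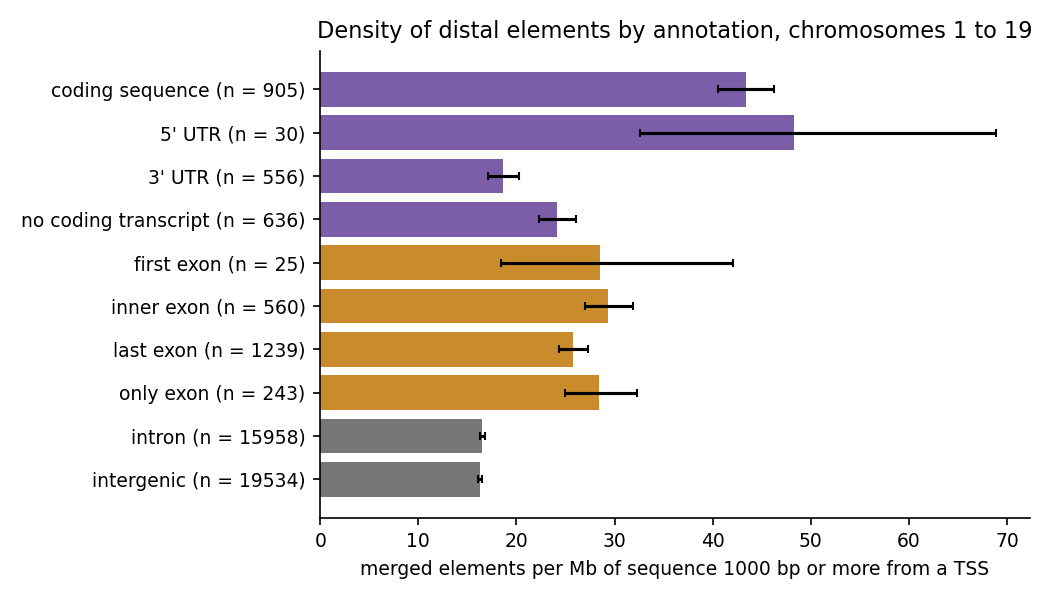
Elements per Mb of annotated sequence at least 1000 bp from a TSS on chromosomes 1 to 19, with exact Poisson 95% intervals; purple bars divide the exonic sequence by coding status, orange bars by exon position, and grey bars show introns and intergenic sequence. Coding sequence, at 43.3 per Mb, stood above 3′ UTRs (18.7), introns (16.5) and intergenic sequence (16.3).

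By position in the transcript, 1239 members (56.0%) lay in last exons, 560 (25.3%) in inner exons, 243 (11.0%) in the only exon of a transcript, 25 (1.13%) in first exons and 147 (6.64%) in exons whose position differed between transcripts. Last exons are long, and they held most of the exonic sequence available, so that per Mb they were not above the other classes: the densities were 25.8 (24.4 to 27.3) for last, 29.3 (27.0 to 31.9) for inner, 28.4 (25 to 32.2) for only exons, 28.5 (18.4 to 42.0) for first exons and 34.4 (29.0 to 40.4) for exons of mixed position, whose interval did not overlap that of last exons. The median exon at the midpoint was 1821.5 bp long in all members, 250.5 bp in inner exons, 2168 bp in last exons and 2545 bp in first exons. An element fitted wholly inside 1 exon at 1199 members (54.2%): 20% of those in inner exons, 64.1% in last, 83.1% in only and 84% in first exons. Distal first exons were thus long by selection, since the TSS rule leaves out the start of every transcript. The Mb counted every base at least 1000 bp from a TSS, whereas the rule set that distance for the element's edge. Bases close to the limit could therefore not hold a midpoint, which lowers density most in classes near a TSS. Median TSS distances were 1466 bp for first, 1548 bp for only and 5550 bp for last exon members.

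Calls in diplonema were less frequent in only exons than in last exons, and those in pachynema were most frequent in inner exons. Inner exons had peaks at 70.2% of members in LZ, 69.1% in P and 23.6% in D, and last exons at 71.9%, 64.3% and 26.6%. The pachynema difference was 4.78 points with an interval that barely excluded 0 (0.04 to 9.35). Only exons had 76.1%, 59.3% and 17.3%, a diplonema share 9.35 points below last exons (-14.3 to -3.58). The 25 first exon members had 64%, 64% and 28%, and the exons of mixed position 64.6%, 57.8% and 29.3%. First exon members were few, and their difference from other classes was not tested.

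By coding status, 905 members (40.9%) had their midpoint in coding sequence, 556 (25.1%) in a 3′ UTR, 30 in a 5′ UTR, 636 (28.7%) in transcripts without a coding frame, and 87 in sequence annotated in more than 1 of these ways. Coding members had a pachynema peak at 68.0% and 3′ UTR members at 60.4%, a difference of 7.52 points (2.47 to 12.6). For LZ the shares were 69.8% and 71.8%, with a difference of -1.93 points (-6.65 to 2.92), and for D 25.7% and 23.0%, with a difference of 2.72 points (-1.86 to 7.15). The median rank of coding members was 37.6% in LZ, 41.2% in P and 35.3% in D, and that of 3′ UTR members 35.5%, 36.7% and 36.5%.

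Many members lay near the 3′ end of a gene. An edge was less than 1000 bp from the end of some annotated transcript in 58.9% of members, against 6.74% of intronic, 3.67% of intergenic and 27.4% of proximal elements; since exons, and last exons above all, lie near transcript ends, the rule itself favours this. Polymerase near polyadenylation sites and true initiation there could not be told apart in peak lists, and its part in the calls was not tested. Another element was present within 500 bp of 38.8% of members, against 34.7% in introns and 35.9% between genes. The median distance from the nearest TSS was 4443 bp (1000 to 361019).

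Protein-coding genes held 1788 members (80.8%), long intergenic noncoding RNAs (lincRNAs) 189, TEC loci (transcripts that still await experimental evidence) 60, antisense RNAs 56, processed transcripts 38 and processed pseudogenes 30. Of the rest, 19 lay in genes of more than 1 type, 10 in unprocessed pseudogenes, 9 in sense intronic RNAs, 6 in RNAs from bidirectional promoters, 5 in transcribed unprocessed pseudogenes and 4 in transcribed processed pseudogenes. Host genes were on the minus strand for 1102 members, the plus strand for 1086 and both for 26. Members in lincRNAs were called in LZ at 73.5%, in P at 69.8% and in D at 31.2%, and in every substage at 23.3% (17.8 to 29.8), against 15.6% (14.0 to 17.4) in protein-coding genes. Members in TEC loci had 81.7%, 65% and 16.7%, and those in antisense RNAs 75%, 58.9% and 26.8%. Of the 30 members in processed pseudogenes, which are copied from messenger RNA and can share reads with their parent genes, 73.3% were called in LZ, 60% in P and 3.33% in D, and 0 in every substage.

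The highest-ranked members called in all 3 substages were the following, taken by the lowest of their 3 ranks. In 4 of these 10, Lhx2, Gm3896, A330070K13Rik and Gm44196, the element itself contained a RefSeq transcript start that the annotation used for the rule lacks, and the Nup160 element lay 977 bp from one. The Lhx2 element, in the last coding exon at chr2:38368581-38369380, scored 1.38, 1.43 and 1.30 in LZ, P and D, which put it at the 99.3%, 99.9% and 99.7% ranks. The antisense gene Gm11872 scored 1.38, 1.34 and 1.19 and the antisense gene Gm3896 1.30, 1.30 and 1.25. Both lay in last exons without a coding frame. A330070K13Rik, annotated as protein-coding, scored 1.30, 1.29 and 1.10, and the lincRNA Gm44196 scored 1.26, 1.25 and 1.08. The TEC locus Gm42972 scored 1.28, 1.19 and 1.31. In the 5′ UTR of Nup160, which encodes a nuclear pore subunit, an element 1276 bp from the nearest TSS scored 1.22, 1.26 and 1.18. In the diplonema list Gm42972 (99.8%), Lhx2 (99.7%) and Gm3896 (99.1%) ranked highest of the 10. The Lgr6 element (chr1:134986991-134988370) scored 1.21, 1.35 and 1.17, and the Pomc element (chr12:3959501-3960800) 1.27, 1.21 and 1.04. In the 3′ UTR of Rasgef1b, an exchange factor for Ras family GTPases, scores of 1.33, 1.20 and 1.05 were found 100596 bp from the nearest TSS. Lgr6, Pomc, Gm11872, Gm44196, Gm42972 and A330070K13Rik had no element at any annotated TSS of their own in any substage (at Gm44196 and A330070K13Rik the member itself held a RefSeq start), whereas Lhx2, Nup160 and Rasgef1b had one in all 3 and Gm3896 had one in LZ and P.

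**Figure D4:**
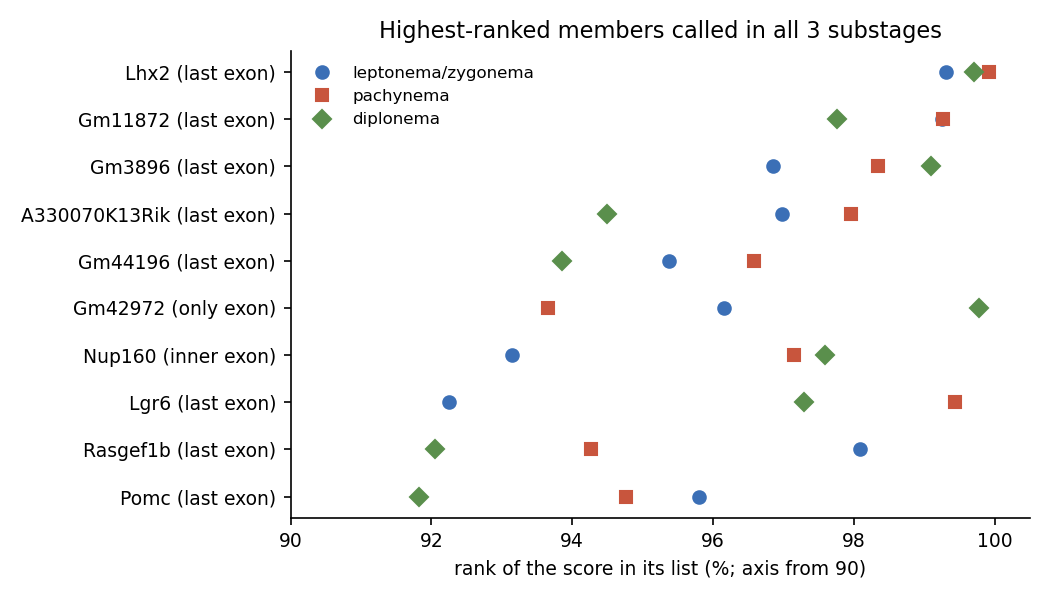
Rank of the highest dREG score of the element within each substage's list (x axis, percent of the list's peaks with this score or lower, drawn from 90) for the 10 highest-ranked members called in all 3 substages (y axis, host gene and exon position). Ranks ran from 91.8% (Pomc in D) to 99.9% (Lhx2 in P), and in the diplonema list Gm42972 (99.8%) stood highest.

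The highest-scoring members called in a single substage were as follows. In LZ alone, the leading elements were in the TEC locus Gm43677 (score 1.05), the 3′ UTR of the zinc finger gene Zfp12 (1.03), the pseudogene Gm18112 (0.97) and a coding exon of Zfhx4, a zinc finger homeobox factor (0.96), 114153 bp from the nearest TSS. For P alone they were in the pseudogene Gm15681 (0.84), the lincRNAs 2310001H17Rik (0.83) and Gm49018 (0.82) and the processed transcript Gm10790 (0.80); all 4 lacked a coding frame. Diplonema-only elements were led by the 3′ UTRs of Erc1, a scaffold of presynaptic active zones (0.68), and Mpped2, a metallophosphoesterase (0.59), and by Hfe2, the iron regulator hemojuvelin (0.54), and Efcab14 (0.46). The D-only leaders stood at the 65.6%, 57.2%, 50.8% and 40.7% ranks of their list, the P-only leaders at 73.0%, 72.6%, 72.1% and 70.8%, and the LZ-only leaders at 83.3%, 81.7%, 78.7% and 78.1% of theirs.

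Within each exon class, most of the leading members were called in every substage. In first exons the pseudogene Gm21056 scored 1.17, 1.03 and 0.57 in LZ, P and D, Lrrc37a scored 1.05, 0.65 and 0.29, and Clk3, a kinase of splicing factors, 0.79 and 0.56 with no diplonema peak. Inner exons were led by the processed transcript 8030451A03Rik (1.38, 1.26 and 0.89), by Fer1l6 and by Slc16a5, a monocarboxylate transporter (1.36, 1.03 and 0.50). Last exons were led, beside Lhx2, by Lgr5, the R-spondin receptor known from intestinal stem cells (1.45, 1.29 and 0.51), and Tmem260 (1.44, 1.24 and 0.71). Only exons were led by Ddi1 (with a RefSeq start in the element), an intronless gene for a ubiquitin-binding protease of the retroviral type (1.43, 1.31 and 0.82). Gm42972 and then Gm43522 (1.41, 1.32 and 0.90) followed it. Exons of mixed position were led by Oprl1, the nociceptin receptor (1.37, 1.08 and 0.76). Next were Ppcdc, an enzyme of coenzyme A synthesis (1.35 and 0.92, none in D), and Ldah, a lipid droplet hydrolase (1.35, 1.21 and 0.78). The lists differ in length, and whether their scores share a scale was not tested, so these values do not give a direction between substages.

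Among gene types, the TEC loci Gm37542 (1.38, 1.20 and 0.99) and Gm44531 (1.20, 1.23 and 0.92) and the lincRNA A830019L24Rik (1.43, 1.29 and 0.97) were called in all substages, and the lincRNA 6820426E19Rik (1.38 and 1.33) in LZ and P. D030055H07Rik, an antisense RNA whose element also held a RefSeq start, scored 0.86, 1.23 and 1.15, at the 72.3%, 95.5% and 96.5% ranks of the LZ, P and D lists. The processed transcript Gm20743 stood at the 13.8%, 89.2% and 73.7% ranks (scores 0.35, 1.11 and 0.77), and the processed transcript 1700054A03Rik at 82.1%, 72.6% and 13.6%. The processed pseudogenes Gm5361 (0.77 and 0.49) and Gm19829 (0.75 and 0.41) were called in LZ and P.

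The 2214 members lay in exons of 1892 genes, 34 of them in exons of more than 1 gene. Of the hosts 1595 had 1 member, 247 had 2, 42 had 3, 6 had 4 and 2 had 5; the 297 genes with several members (15.7%) do not give independent counts. Cdc14a, a dual-specificity phosphatase, had 5 members, and 0 of them had a peak in LZ. Of these, 3 lay side by side in a single last exon without a coding frame, with P scores of 0.52, 0.41 and 0.41 and a D score of 0.37 at 1 of them. Another, in the 3′ UTR, scored 0.66 in P alone, and the last, at an inner exon, 0.29 in D alone. By contrast, the 5 members of Nrip1, a corepressor of nuclear receptors whose coding sequence is in 1 exon, were called in LZ at 4 (0.29, 0.47, 0.41 and 0.30) and in P at 2 (0.42 and 0.40), with 0 in D. Dsp, which encodes the desmosomal protein desmoplakin, had 4 members in its last coding exon, all called in P (0.70, 0.35, 0.35 and 0.65), 2 in D (0.30 and 0.36) and 1 in LZ (0.28). Fat1, an atypical cadherin, had 3 neighbouring members in a coding exon of 4068 bp, all called in LZ (0.41, 0.37 and 1.14) and 1 of them in P (0.77), and another in its 3′ UTR called in P alone (0.35). Csgalnact1, an enzyme of chondroitin sulfate synthesis, had 3 in an exon of 928 bp called in P alone (0.38, 0.51 and 0.32) and another called in LZ alone (0.74). Several calls at these genes stood near the bottom of their lists. The LZ call at Dsp was at the 0.593% rank, and Nrip1 LZ scores of 0.29 and 0.30 were at 1.67% and 3.84%. The D-only call at Cdc14a was at 5.38% and the Dsp D score of 0.30 at 7.04%. The highest, the Fat1 LZ score of 1.14, was at 88.1%. At these 5 genes, members of the same exon mostly shared a substage. Of all members, however, 71.4% had an LZ peak and 64.5% a P peak. Whether neighbours shared a substage more often than other members was not tested, and elements that close may be pieces of 1 region.

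The promoters of the host genes gave a further readout that the rule did not use. An element at a TSS of the host was called in all substages for 1026 members (46.3%) and in none for 757 (34.2%). For protein-coding hosts, the promoter was called in pachynema for 61.3% (58.5 to 64.1) of 1159 members with a pachynema peak and for 70.9% (67.3 to 74.3) of 647 without one. The same comparison gave 47.8% (43.2 to 52.4) and 53.4% (50.7 to 56.0) in diplonema, and 63.9% (61.2 to 66.4) and 61.7% (57.5 to 65.8) in LZ. Across all 20807 autosomal protein-coding genes, 60.9%, 61.3% and 52.5% had a promoter element in LZ, P and D. Intronic elements lay in genes with called promoters more often, with 75.4% and 76.8% in LZ, 78.1% and 80.7% in P and 64.4% and 67.3% in D, for elements with and without the peak. A member without a peak in a substage was by construction called in another, so these are contrasts among called elements and not against uncalled exons.

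The host genes were set against lists of genes with roles in spermatogenesis and against multigene families; across all autosomal protein-coding genes 1500 of 20807 (7.21%) hosted a member. Of 40 meiotic prophase genes 0 did (upper 95% limit 8.76%). Of 21 genes of the piRNA pathway, which silences transposons, 2 did: Rnf17 with a coding exon element in LZ alone (score 0.63) and Tdrd9 with an inner exon element in LZ alone (0.32). Of 27 spermatid and sperm genes there were 3: the sperm calcium channel subunit Catsper2 (0.81 in LZ and 0.51 in P), the testis glycolytic enzyme Pgk2 (0.47 in LZ alone) and the acrosomal protease Acr (0.31 in LZ and 0.32 in P). The spermatid and sperm list had 86.1 members per Mb of distal exon, from these 3 members over little sequence. All 5 of these hosts had promoter elements in all substages, as did the hosts of 46.3% of all members. This difference was not tested. Chromatin regulators had 8 hosts of 40 (20%, 10.5 to 34.8) with 9 members, above the 7.21% of all protein-coding genes. Per Mb of distal exon, however, the list had 30.6 members against 27.5 in all protein-coding genes. The 8 hosts included the remodellers Chd5 (0.76 in LZ and 0.65 in P) and Chd7 (0.31 and 0.38). They also included the SWI/SNF subunit Arid1a (0.69 in LZ alone) and the histone H3 methyltransferase Kmt2d (0.62 in LZ alone). The testis bromodomain protein Brdt had a 3′ UTR element in LZ alone (0.35). Several calls at the named list genes stood low in their lists. Ranks were 8.50% for Tdrd9 in LZ, 5.27% and 9.55% for Acr in LZ and P, and 5.92% for Chd7 in LZ. The highest of the named calls, Catsper2 in LZ, was at 68.9%.

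Of the gene families, zinc finger genes named Zfp or Zscan had 35 hosts of 404 (8.66%, 6.30 to 11.8) with 50 members, 31.8 per Mb. Olfactory receptor genes, which are silent in most tissues, had 8 hosts of 1128 (0.709%, 0.360 to 1.39) and 3.70 members per Mb. Axonemal dynein genes, which encode motor proteins of cilia and flagella, had 5 hosts of 17 (Dnah2, Dnah6, Dnah8, Dnah9 and Dnah12), each with 1 member, and collagen genes 8 of 42, with 23.8 and 29.6 members per Mb. Of the clustered histone genes 3 of 67 were hosts, with 5 members over little distal exon (229 per Mb): Hist1h1d had 3 (0.39, 0.29 and 0.84) and Hist1h1c 1 (0.32), all in LZ alone and in UTRs, and Hist1h2be 1 called in LZ, P and D (0.48, 0.58 and 0.38). Ribosomal protein genes had 1 host of 75 (Rps24, 48.3 members per Mb), Hox genes 2 of 39 (Hoxb3 and Hoxc9, 62.3 per Mb) and clustered protocadherin genes 7 of 57 (65.8 per Mb), with 27.5 per Mb in all protein-coding genes; each of these lists has 8 members or fewer. Reads of near-identical family members may be split or lost in mapping, so these family counts are uncertain.

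The members were richer in G, C and CpG than other distal elements and poorer than proximal ones. The median GC content of the central window was 51.2% in members, 47.3% in introns, 47.8% between genes and 55.7% at proximal elements. A window called CpG-rich here, with GC content over 50% and an observed over expected CpG ratio over 0.6, was found at 18.7% of members, 3.10% of intronic, 4.49% of intergenic and 41.3% of proximal elements; the gap to introns was 15.6 points (14.0 to 17.3). It lay mostly in coding sequence, where 33.1% of members had such a window, against 7.37% in 3′ UTRs and 5.82% in exons without a coding frame. Coding sequence is itself richer in CpG: the distal coding sequence as a whole held 5.26 CpGs per window length at 51.0% GC. Windows of coding members had a mean of 9.18 CpGs and 56.0% GC, while those of 3′ UTR members had 4.25 against 2.05 in all distal 3′ UTR sequence. Element windows were also above their surroundings in introns, with 2.75 against 1.65. More than 50% of the window was soft-masked repeat in 3.79% of members, 14.2% of intronic and 21.4% of intergenic elements.

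**Figure D5:**
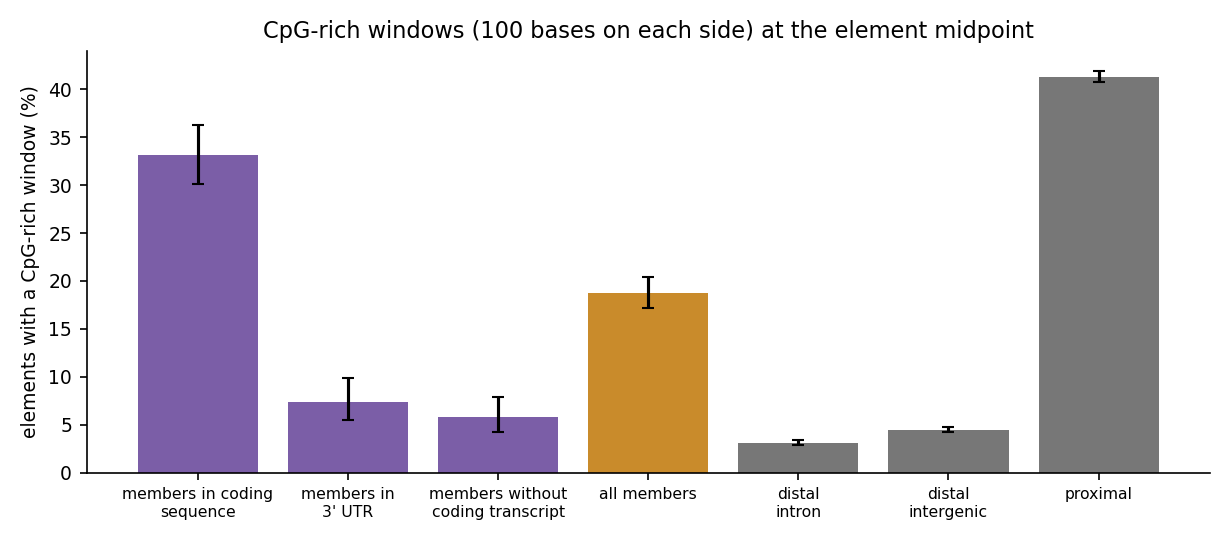
Percent of elements whose central window (100 bases on each side of the midpoint) was CpG-rich (GC over 50%, observed over expected CpG over 0.6), with 95% Wilson intervals, for members by coding status and for the other places. Coding members (33.1%) lay between 3′ UTR members (7.37%) and proximal elements (41.3%).

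CpG content differed between members called in P and not in LZ and those called in LZ and not in P. Members called in P and not in LZ had a CpG-rich window at 23.0%, and those called in LZ and not in P at 12.7%, a difference of 10.2 points (5.97 to 14.6). Within coding sequence the shares were 39.5% and 25.1%, a difference of 14.4 points (6.15 to 22.4). Intronic (4.17% and 2.02%) and intergenic (5.22% and 2.45%) elements differed in the same direction, by 2.15 points (1.39 to 2.96) and 2.77 points (2.00 to 3.58). Proximal elements had 23.4% (22.1 to 24.8) and 20.2% (18.9 to 21.4). The contrast does not cover every member with an LZ peak: those called in all substages had a CpG-rich window at 22.3%. Members called in D alone had one at 18.8%.

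Exact motif letters were searched on both strands of the window, and a match is a description of the sequence, not a binding site. The core GGGCGG of SP factors was present at 11.2% of members, 5.88% of intronic elements and 16.2% of all elements, 5.32 points above introns (4.01 to 6.74). The ETS letters CCGGAAG were at 4.56%, 2.02% and 3.55%, a gap of 2.54 points (1.71 to 3.51), and at 7.06% of members called in every substage. TATAAA was less frequent, at 7.09% against 10.99% in introns and 8.95% of all elements. The E-box CACGTG was at 4.61% of members and 3.97% of all elements, TGACGTCA at 0.81% and 0.83%, and GTTGCCA at 3.79% and 4.34%. The MYB letters CAGTTG, which can share GTTG with the RFX core, were at 11.1% of members and 11.0% of all elements. Among members called in P and not LZ they were at 13.3%, and among those in LZ and not P at 12%, a difference of 1.30 points (-2.38 to 5.10). In introns the same contrast was 16.3% against 10.8% (5.51 points, 4.02 to 7.04) and between genes 16.8% against 10.9% (5.94 points, 4.56 to 7.34). Whether members differed from introns in this contrast was not tested.

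Start sites missing from the annotation used for the rule were looked for in RefSeq. An edge was less than 1000 bp from a RefSeq start in 154 members (6.96%, 5.97 to 8.09), of which 33 had a start of a curated transcript that near, and 64 members contained a RefSeq start. Of intronic elements 7.47% (7.07 to 7.89) and of intergenic elements 8.96% (8.57 to 9.37) had a RefSeq start that near. For curated transcripts alone members had the highest share of the 3, with 1.49% (1.06 to 2.09) of members, 0.733% (0.612 to 0.878) of intronic and 0.962% (0.835 to 1.11) of intergenic elements. The 154 members had a peak in LZ at 72.7% (65.2 to 79.1), in P at 72.7% (65.2 to 79.1) and in D at 35.7% (28.6 to 43.5). The other members had 71.3%, 63.9% and 24.2%, and all autosomal elements 78.2%, 72.1% and 39%. Median ranks with such a start were 49.8% in LZ, 48.4% in P and 39.4% in D, and without one 37.4%, 38.9% and 36.8%.

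The 71 members with an edge 1000 to 1099 bp from a TSS were called in LZ at 63.4%, in P at 69.0% and in D at 19.7%. The 98 exonic elements at 900 to 999 bp, which the rule left out, had 69.4%, 63.3% and 26.5%.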

How the data were processed

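leChRO-seq libraries of STAPUT fractions (4 each of leptonema/zygonema, pachynema and diplonema) were freed of PCR duplicates by the authors with PRINSEQ lite, by molecular identifier, trimmed of adapters with cutadapt, aligned with BWA to mm10 with an rRNA unit, and merged by substage. Peaks were called by the authors with dREG at default settings; its version was not given in the sources used here. The labels call the reads single-end and the methods paired-end. Each deposited list gives a dREG score and a p-value, both the authors' own values, and these were used as deposited: p-values reached 0.05 in each list, and whether they were adjusted is not stated. The deposited columns included 0 columns of other series.

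Peaks of the 3 lists (178062) that overlapped or shared an edge were joined into elements. Exons and TSSs came from the 141730 transcripts of GENCODE M21 (GRCm38) on the chromosomes used, start sites for comparison from RefSeq, and bases from GRCm38.p6. Shares have Wilson 95% intervals, their differences Newcombe intervals and densities exact Poisson intervals; all cover counting error alone. An exon was first, inner, last or only when all transcripts holding the midpoint agreed, and classes of at least 20 members were given shares. Merging, distances and exon classes were tested on simulated data (2057 elements merged and measured and 525 classed, 0 wrong). Tables were made with pandas 2.3.3 and numpy 2.4.6 in Python 3.11.15, intervals with scipy 1.17.1, and plots with matplotlib 3.10.9.

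The members and gene lists were chosen with earlier results of these data known. Named were the 10 members called in all substages with the highest lowest rank, the 4 highest-scoring of each substage alone, the 3 highest-ranked of each exon class and each gene type of at least 20 members, the 5 genes with most members (ties by name), and up to 4 hosts of each gene list by rank; Brdt, the axonemal dyneins and the histone genes were named after their values were seen. Alternatives were a score of at least 0.5, a p-value of at most 0.01, lists of equal length, the distance taken from the midpoint or set to 2000 bp, whole elements in 1 exon and basic transcripts.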

Additional observations from a re-analysis of the deposited data

How the results depend on the processing

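Of 60 recomputed values, 32 stayed within the interval of the value reported, or within 1.5 times the number of members, and 28 moved; the cause was not tested except where the alternative itself sets it. With peaks scoring at least 0.5, 1077 members were left, 5.40% of distal elements, with calls at 75.7% in LZ, 67.1% in P and 22.6% in D. With lists of equal length there were 1157, with calls at 60.9%, 58.2% and 53.0% and 23.0% in all substages. Distances from the midpoint gave an exonic share of 6.37% and 53.1% in last exons. A distance of 2000 bp gave 4.82%, a pachynema share of 67.1%, 61.7% in last exons and 84.6% in protein-coding genes. Whole elements in 1 exon numbered 1199 (3.18%), with calls at 69.0%, 57.5% and 19.3%, 10.1% in all substages and 67.1% in last exons. Basic transcripts gave 5.60% and 52.8% in last exons. In sequence outside soft-masked repeats, chosen after seeing the data, densities were 29.7 per Mb in exons, 18.7 in introns and 20.3 in 3′ UTRs. The p-value limit of 0.01 moved none of the 8 values. In each alternative for which the substage shares were recomputed, LZ had the largest share of calls and D the smallest. The soft-masked alternative covered densities alone. No paired analysis was possible because the libraries of a substage were pooled before calling, which also left no replicate to drop. Depth per peak was unknown, so a missing call is not evidence of no initiation.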
